A study of Mus musculus with 12 samples.

Results

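The EGF family ligands examined in distal colon were Egf, Areg (amphiregulin), Ereg (epiregulin), Btc (betacellulin), Hbegf (heparin-binding EGF-like growth factor), Tgfa (transforming growth factor alpha), Epgn (epigen) and the neuregulins Nrg1 and Nrg4. They were chosen by name and not by level. Of the 113193 transcripts in the table, 53 carried these names, and their values were summed to 9 of 35240 gene symbols. All 9 ligands were in the table. A mean of at least 0.5 normalized TPM over the mice was reached by 8 of them, which entered the comparisons, and Epgn fell under it. Normalized TPM is the TPM of kallisto after the authors' scaling between mice, a per-length measure that allows levels of different genes to be compared.

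RNA of full-thickness distal colon was measured in 12 mice, for which the labels name no treatment. The 6 Spry2IEKO mice were Vil1::Cre;Spry2-f/f, in which Cre, under control of the villin promoter of epithelial cells, deletes Spry2 along the gut lining, while the other layers of the wall keep it. The 6 Spry2FF mice were littermates with the floxed Spry2-f/f alleles and no Cre, so all mice were homozygous for the floxed allele, and mice with Cre and no floxed allele were not analysed here. Each genotype had 3 mice in litter A and 3 in litter B. Males were 3 of the 6 Spry2FF mice and 1 of the 6 Spry2IEKO mice. The labels give an age of 6 weeks in one place and 8 weeks in another. Library names changed with the litter, so litter and library set cannot be told apart. Mice are numbered here as in the labels.

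EGF family ligands are made as precursors, most of them anchored in the cell membrane, and are cut free by proteases to bind receptors of the ErbB family on the same or on neighbouring cells. Egf, Tgfa, Areg and Epgn bind the EGF receptor, Btc, Hbegf and Ereg bind that receptor and Erbb4, Nrg1 binds Erbb3 and Erbb4, and Nrg4 binds Erbb4. Bound receptors signal through Ras and ERK and through PI3K, the pathways that Sprouty proteins restrain inside the cell, and in the gut these signals are known for their part in growth, survival and repair of the epithelium.

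The summed values of a mouse ranged from 918816 to 1069158 normalized TPM, and 18654 to 19752 genes were above 0 in a mouse. Read depth is not part of these values. The paper states only an approximate depth per sample, and the depth of each mouse is unknown. A ligand at 0 is therefore described only as listed at 0. Spry2 was lower in every Spry2IEKO mouse (20.04 ± 1.59, SD, n = 6) than in any Spry2FF mouse (27.7 ± 3.29, SD, n = 6), an exact permutation p of 0.00216 (two-sided), while over all genes limma gave it an adjusted p of 0.160. The 6 epithelial markers Epcam, Cdh1, Vil1, Krt8, Krt19 and Cdx2 were above 0. Their summed level was 5275 to 6655 normalized TPM (median 5801) in Spry2FF mice and 4331 to 5586 (median 5001) in Spry2IEKO mice. So 4 of the 6 Spry2IEKO mice lay below every Spry2FF mouse. Over the 12 mice Pearson's r with this sum was 0.61 for Ereg, 0.58 for Hbegf, 0.44 for Areg and -0.59 for Nrg4. For Egf, Btc, Tgfa and Nrg1 it lay between -0.30 and 0.28. None passed after adjustment over the 128 relations described below (lowest adjusted permutation p 0.292). Whether the lower sum accounts for ligand differences was not tested. Spry2IEKO mice 4 and 5 stood apart in the summed level of 6 fat markers, at 422 and 802 normalized TPM against 20.2 to 76.5 in the other 10 mice. Without them each tested ligand's genotype difference is given below.

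All 9 ligands share a stretch with 6 cysteines, the part of an EGF family protein that docks to the receptor. A search of the translated GENCODE M21 transcripts (GRCm38) found this stretch once in the coding transcript examined for each ligand, spread over 2 neighbouring exons. Between its cysteines lay 7 residues, then 4 (Areg, Ereg, Btc, Hbegf, Tgfa, Epgn) or 5 (Egf, Nrg1, Nrg4), then 10 in every ligand except Nrg1, which had 13, then 1 and then 8. Apart from the cysteines, Btc and Hbegf were the most alike pair, with 14 of 30 compared residues in common. The coding bases are shown for Egf, after which the family is named, for Areg and Tgfa, the most abundant ligands, for Ereg, whose level followed surface markers, and for Nrg4, whose level came almost wholly from transcripts without them. The cysteine codons are in capitals, and the genome span, which holds an intron, is chr3:129686322-129690850 (minus strand) for Egf, chr5:91143614-91144364 (plus strand) for Areg, chr6:86263200-86269960 (plus strand) for Tgfa, chr5:91088496-91089111 (plus strand) for Ereg and chr9:55242177-55280969 (minus strand) for Nrg4.
Egf: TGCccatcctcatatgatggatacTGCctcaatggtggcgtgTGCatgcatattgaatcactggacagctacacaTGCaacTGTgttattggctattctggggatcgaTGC
Areg: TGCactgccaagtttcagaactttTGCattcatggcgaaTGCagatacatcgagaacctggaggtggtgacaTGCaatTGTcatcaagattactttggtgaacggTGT
Tgfa: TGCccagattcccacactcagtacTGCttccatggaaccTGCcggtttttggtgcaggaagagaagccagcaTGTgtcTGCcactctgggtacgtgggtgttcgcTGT
Ereg: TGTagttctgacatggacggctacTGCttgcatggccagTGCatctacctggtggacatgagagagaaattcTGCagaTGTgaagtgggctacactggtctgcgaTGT
Nrg4: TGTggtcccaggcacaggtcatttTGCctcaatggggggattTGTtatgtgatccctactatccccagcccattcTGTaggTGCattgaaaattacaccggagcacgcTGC

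Not all RNA counted under a ligand's name holds this stretch. Areg, Ereg and Hbegf each had a single transcript in the table, which holds it, and both Epgn transcripts hold it. For Tgfa, 98.8% of the level came from transcripts that hold the stretch, and for Btc 98.1%. For Nrg1 the share was 84.2%, in 12 transcripts above 0 that carry 1 of 2 versions of it (50.02% and 34.2% of the level), and the leading transcript ENSMUST00000207470.1 made up 33.4% of the Nrg1 level. For Egf the share was 59.5%. The transcript with the highest level under the name Egf, ENSMUST00000197250.1 (29.4% of the level), is annotated as a retained intron and lacks the stretch, and the full-length coding transcript ENSMUST00000029653.6 followed with 25.9%.

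Nrg4 differed most from this. Only 4.46% of its level lay in transcripts with the bases printed above. Transcripts annotated as processed transcripts, with no reading frame, made up 74.5% of it, transcripts annotated for nonsense-mediated decay 20.998%, and coding transcripts 3.73%. The main one, ENSMUST00000139261.7, a processed transcript, made up 58.1%. Transcripts with the stretch were above 0 in 2 of 12 mice, at 1.04 normalized TPM in Spry2IEKO mouse 5 and 0.0740 in Spry2FF mouse 3. By this split, the Nrg4 levels given below are mostly levels of RNA that does not carry the receptor-binding part. The split between transcripts of a gene is an estimate of kallisto, whose error was not tested, for Egf as for Nrg4. Of the Nrg4 transcripts, ENSMUST00000133659.1 was above 0 in 7 of 12 mice and ENSMUST00000145784.7 in 1.

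**Figure D1:**
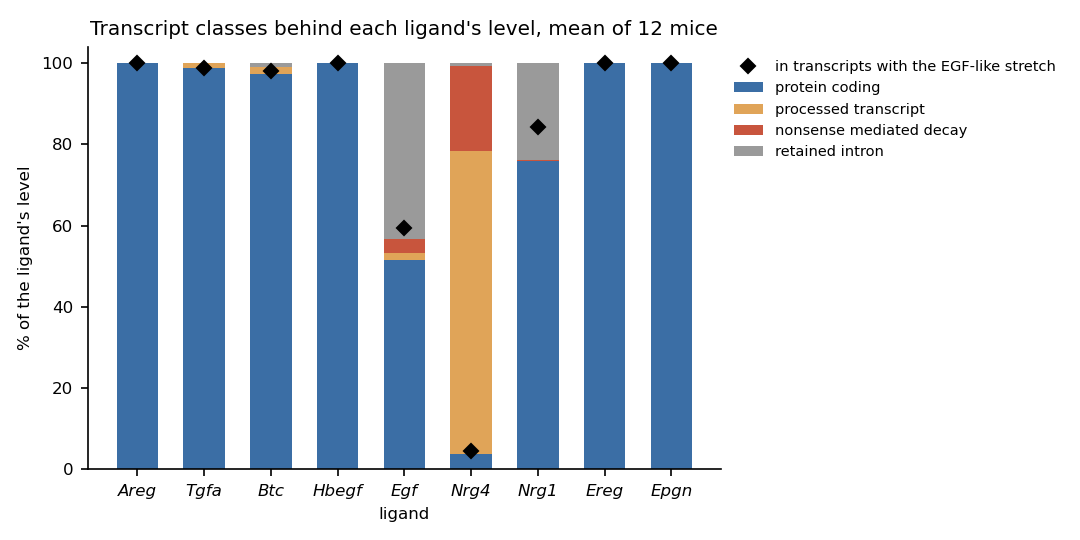
Bars divide each ligand's level, the mean of 12 mice, into GENCODE M21 transcript classes in percent (vertical axis), and diamonds mark the percent that lies in transcripts with the 6-cysteine stretch. Coding transcripts make up 97.2% or more of Areg, Tgfa, Btc, Hbegf, Ereg and Epgn, 75.9% of Nrg1, 51.6% of Egf and 3.73% of Nrg4.

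Areg was the most abundant ligand, at 18.6 ± 10.5 normalized TPM (SD, n = 12), followed by Tgfa at 11.1 ± 1.97, Btc at 7.51 ± 1.07, Hbegf at 6.06 ± 3.03 and Egf at 4.08 ± 0.772. Nrg4 (2.08 ± 2.02), Nrg1 (1.87 ± 0.883) and Ereg (1.81 ± 0.615) formed a lower group, and Epgn was near 0 (0.0678 ± 0.0772). Neighbours in this order were compared within mice by an exact sign-flip permutation test (two-sided) on the log2(normalized TPM + 0.5) scale, with Benjamini-Hochberg adjustment over the 8 pairs. Areg was above Tgfa in 9 of 12 mice (adjusted permutation p = 0.0352), the 3 exceptions being the 3 Spry2IEKO mice of litter A, whose means were 9.67 for Areg and 11.5 for Tgfa, and Tgfa was above Btc in 11 of 12 (adjusted permutation p = 0.00586). Btc was above Hbegf in 9 of 12 mice, a difference that did not pass (adjusted permutation p = 0.0508), and Hbegf was above Egf in 9 of 12 (adjusted permutation p = 0.0469). Egf was above Nrg4 in 11 of 12 mice (adjusted permutation p = 0.00781). Nrg4, Nrg1 and Ereg could not be ordered, with an adjusted permutation p of 0.976 for both pairs. Ereg was above Epgn in 12 of 12 mice (adjusted permutation p = 0.00391).

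When only coding transcripts were summed, Egf fell to a mean of 2.11 normalized TPM and could not be told from Ereg at 1.81 (adjusted permutation p = 0.363), Nrg1 stood at 1.42, and Nrg4 fell to 0.0776, a level like that of Epgn (adjusted permutation p = 0.844). The order of Areg, Tgfa, Btc and Hbegf was the same by this measure. The summed levels and the levels of coding transcripts are both means over the 12 mice, whose genotypes and litters are pooled in them.

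**Figure D2:**
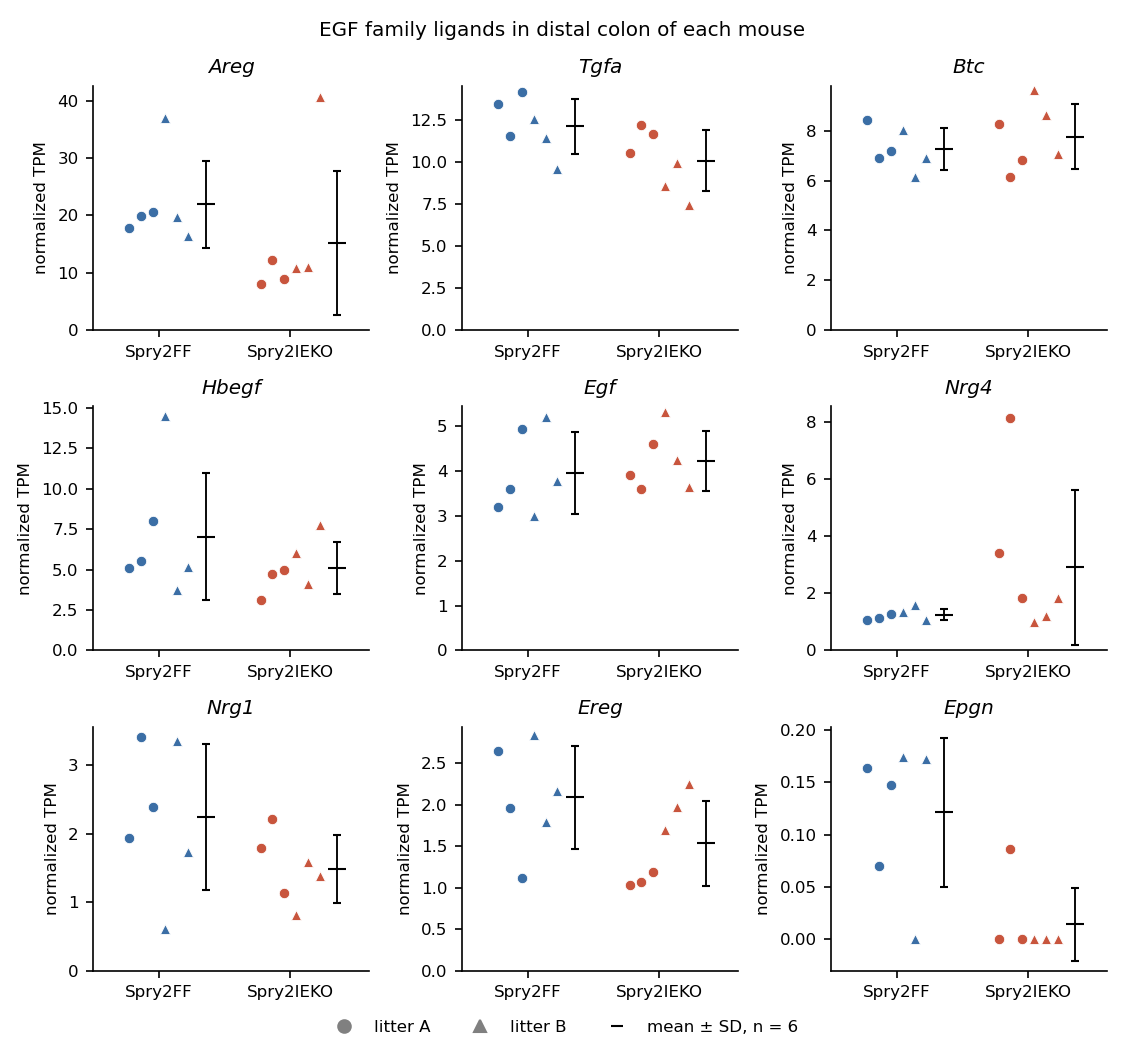
Each panel plots the level of 1 ligand in normalized TPM (vertical axis) for each Spry2FF (blue) and Spry2IEKO (red) mouse, with circles for litter A, triangles for litter B and the mean ± SD of 6 mice in black. Areg lies at 8.03 to 12.1 in 5 Spry2IEKO mice and at 40.6 in mouse 12, and Nrg4 reaches 3.42 and 8.13 in Spry2IEKO mice 4 and 5.

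To ask whether loss of epithelial Sprouty2 is accompanied by other levels of the ligands, genotypes were compared with limma on log2(normalized TPM + 0.5) over 15879 genes. No ligand passed the threshold of an adjusted p of 0.05 (0 of 8 tested, beside 5 genes or 0.0315% of all tested), and none had an unadjusted p under 0.05 (0 of 8, beside 6.18% of all genes). With litter as a covariate, unadjusted p-values were under 0.05 for 2 of 8 ligands, Tgfa and Areg, beside 8.2% of all genes, and their adjusted p-values by limma were 0.538 and 0.591. The lowest adjusted p among the ligands without a covariate was 0.822 by limma, for Areg. The mice of the 2 genotypes overlapped for every tested ligand (0 of 8 without overlap, beside 0.403% of all genes). Fitted differences were above 0 for 3 ligands and below 0 for 5, with a median of -0.30 on the log2 scale, beside 0.00756 over all genes tested. These p-values measure the spread between the mice of this series, and in whole tissue fewer cells of a type and less RNA per cell cannot be told apart.

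Areg, a low-affinity ligand made by epithelial and immune cells, had the fitted difference farthest from 0 of the 8, with Nrg4 close behind in the other direction. Of 25 other settings of the fit, Nrg4 was farther from 0 than Areg in 8, among them a pseudocount of 0.1 (0.79 against -0.73) and females alone (0.82 against -0.50). In Spry2FF mice it ranged from 16.5 to 37.0 normalized TPM with a median of 19.8, and in Spry2IEKO mice from 8.03 to 40.6 with a median of 10.8. In each genotype 1 mouse stood far above the others, Spry2FF mouse 9 at 37.0 and Spry2IEKO mouse 12 at 40.6, both of litter B. The other 5 Spry2IEKO mice, at 8.03 to 12.1, lay below every Spry2FF mouse. The fitted difference, Spry2IEKO minus Spry2FF, was -0.71 (SE 0.334) on the log2 scale, with a 95% interval of -1.43 to 0.01 and an adjusted p of 0.822 by limma. In litter A the 3 Spry2IEKO mice (8.03, 8.87 and 12.1) did not overlap the 3 Spry2FF mice (17.8, 19.8 and 20.6). In litter B the Spry2IEKO mice were at 10.7, 10.9 and 40.6 and the Spry2FF mice at 16.5, 19.8 and 37.0. They overlapped there through mouse 12. Areg was not alone in this, as Hbegf (3.10, 4.70 and 4.94 against 5.12, 5.54 and 8.01) and Nrg4 had no overlap in litter A either. The share of all genes without overlap within 1 litter was not determined.

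The Areg difference depended on these mice. The difference of the mean levels was -6.70 normalized TPM (exact permutation p = 0.331, two-sided). Without Spry2IEKO mouse 12 it was -11.8 (exact permutation p = 0.00433), and without Spry2FF mouse 9 it was -3.67 (exact permutation p = 0.643). On the log2 scale the fitted difference without mouse 12 was -1.04, with an adjusted p of 0.181 by limma. Mouse 12 also had the highest summed level of 6 surface colonocyte markers (Krt20, Car4, Slc26a3, Aqp8, Ceacam20 and Guca2a) of all mice, at 5691 normalized TPM, against 2414 to 3889 in the other Spry2IEKO mice and 2876 to 4432 in Spry2FF mice. None of the 6 markers was at 0 in all mice. Over the 12 mice Areg had r = 0.79 with this sum. Whether the markers account for the Areg difference between genotypes was not tested.

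Tgfa, a ligand produced by epithelial cells themselves, was the second most abundant. It ranged from 9.59 to 14.2 normalized TPM in Spry2FF mice (median 12.04) and from 7.44 to 12.2 in Spry2IEKO mice (median 10.3). The groups overlapped, although 2 Spry2IEKO mice, 12 and 8, lay below every Spry2FF mouse. The fitted log2 difference was -0.26 (SE 0.131), with a 95% interval of -0.55 to 0.02 and an adjusted p of 0.826 by limma. The means differed by -2.04 normalized TPM, with an exact permutation p of 0.0736 over all mice and of 0.03 when genotypes were exchanged within litters only.

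The 3 ligands that bind both the EGF receptor and Erbb4 overlapped between genotypes. Ereg ranged from 1.12 to 2.84 normalized TPM in Spry2FF mice (median 2.06) and from 1.03 to 2.25 in Spry2IEKO mice (median 1.45), a log2 difference of -0.35 (SE 0.216) with an adjusted p of 0.844 by limma, which was -0.22 with sex as a covariate. The lowest 4 values of Ereg were those of the 3 Spry2IEKO mice of litter A, at 1.03, 1.06 and 1.19, and Spry2FF mouse 7 of the same litter, at 1.12. Hbegf ranged from 3.76 to 14.5 in Spry2FF mice (median 5.34) and from 3.10 to 7.77 in Spry2IEKO mice (median 4.82). Its log2 difference was -0.34 (SE 0.282; adjusted p = 0.889 by limma), and without Spry2FF mouse 9, which had the value of 14.5, it was -0.11. With sex as a covariate it was -0.21. Btc, at 6.14 to 8.43 in Spry2FF mice (median 7.06) and 6.13 to 9.63 in Spry2IEKO mice (median 7.67), had a log2 difference of 0.08 (SE 0.120), with a 95% interval of -0.18 to 0.34, and of 0.17 with sex as a covariate.

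Spry2FF mouse 9 was high in Hbegf and in Areg, and it also had the highest level of Fos of its genotype. Fos, an immediate early gene that turns on within minutes of a stimulus, was at 207 normalized TPM in this mouse and at 41.6 to 78.4 in the other 5 Spry2FF mice. Whether the values of this mouse have a source in common was not tested.

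Egf itself did not differ detectably between genotypes. Its level was 2.99 to 5.19 normalized TPM in Spry2FF mice (median 3.69) and 3.59 to 5.32 in Spry2IEKO mice (median 4.08). The log2 difference was 0.10 (SE 0.151), with a 95% interval of -0.23 to 0.42. Egf transcripts with the 6-cysteine stretch ran the other way, at 2.56 ± 0.793 in Spry2FF and 2.30 ± 0.401 in Spry2IEKO mice (SD, n = 6 each). The retained intron ENSMUST00000197250.1 was at 0.958 ± 0.456 and 1.44 ± 0.512. These 2 parts of the Egf level were not tested between genotypes. Epgn was not compared by limma because of its low level. It was above 0 in 5 of 6 Spry2FF mice, at 0.0701 to 0.174 normalized TPM, and in 1 of 6 Spry2IEKO mice, number 5, at 0.0860, and was listed at 0 in the remaining 6 mice. The exact permutation p of this difference was 0.0281 (two-sided). In a limma fit with no filter on low values its adjusted p was 0.797. The gene was listed at 0 in mice of both genotypes, and no fold change is given.

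Nrg1, a ligand of stromal and neural cells, ranged from 0.604 to 3.42 normalized TPM in Spry2FF mice (median 2.17) and from 0.823 to 2.22 in Spry2IEKO mice (median 1.49). The highest levels were those of Spry2FF mice 3 and 10 (3.42 and 3.35) and the lowest that of Spry2FF mouse 9 (0.604), so the Spry2FF mice spanned the whole range of the Spry2IEKO mice. The log2 difference was -0.38 (SE 0.295, adjusted p = 0.877 by limma), and -0.62 without Spry2FF mouse 9 (adjusted p = 0.937 by limma). With sex as a covariate it was -0.55.

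Nrg4, known as a factor released by fat and as a survival factor for colon epithelium that acts on Erbb4, had its highest levels in Spry2IEKO mice. It lay between 1.08 and 1.59 normalized TPM in Spry2FF mice (median 1.21). In Spry2IEKO mice it ranged from 0.979 to 8.13 (median 1.84), and 4 of the 6 were above every Spry2FF mouse, numbers 5 (8.13), 4 (3.42), 12 (1.84) and 6 (1.84). The log2 difference was 0.68 (SE 0.356), with a 95% interval of -0.09 to 1.45 and an adjusted p of 0.833 by limma. With sex as a covariate it was 0.53. The 2 highest mice were the mice with the high fat marker sums. Without both, the log2 difference was 0.15 (adjusted p = 0.933 by limma) and the means differed by 0.219 normalized TPM (exact permutation p = 0.310). In mouse 5 the stretch-bearing transcripts gave 1.04 of the 8.13 normalized TPM, and in mouse 4 they were listed at 0.

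Leaving out both fat-rich mice also moved the genotype differences of other ligands. On the log2 scale Areg was then at -0.53, Nrg1 at -0.57, Tgfa at -0.36, Ereg at -0.17, Hbegf at -0.17, Egf at 0.17 and Btc at 0.13, so those of Areg, Ereg and Hbegf came nearer to 0 and those of Tgfa, Nrg1, Egf and Btc moved away from it. Tgfa was the only ligand with an unadjusted p under 0.05 in this fit (1 of 8, beside 4.84% of all genes). Its adjusted p by limma was 0.923.

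**Figure D3:**
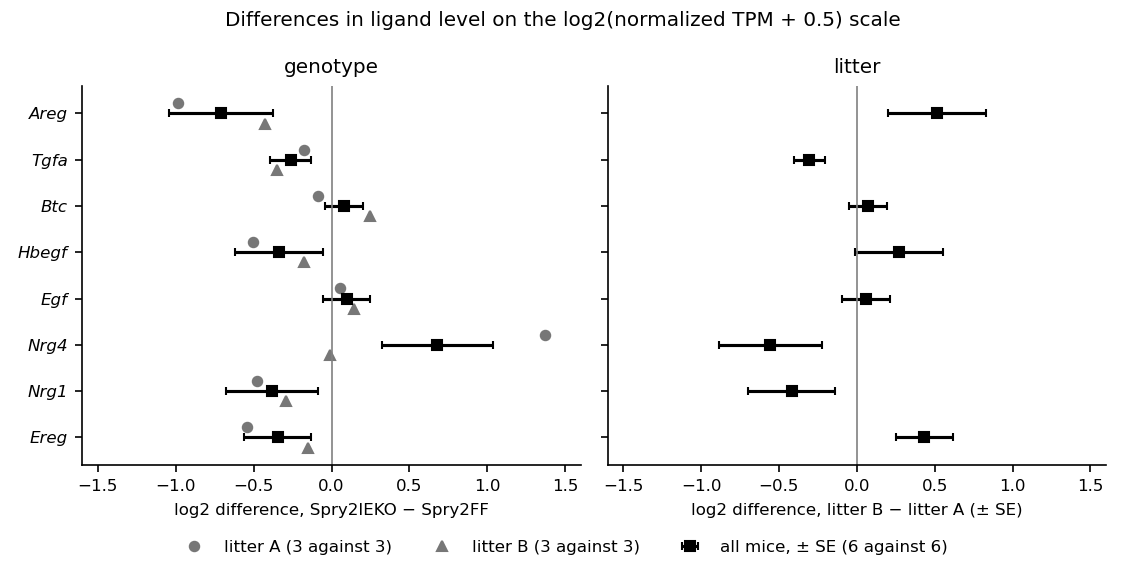
Squares give the fitted log2 difference (horizontal axis) of each ligand with its SE, between genotypes on the left and between litters on the right, and grey circles and triangles give the genotype difference within litter A and litter B. Areg is at -0.71 between genotypes, and the genotype difference of Nrg4 is 1.37 in litter A and -0.01 in litter B.

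The genotype difference was then compared between litters. By an interaction term in limma, 0 of 8 ligands passed an adjusted p of 0.05, beside 0.0126% of all genes. An unadjusted p under 0.05 was found for 1 of 8 ligands, Nrg4, beside 4.19% of all genes. In litter A the Spry2IEKO mice had Nrg4 levels of 1.84, 3.42 and 8.13 normalized TPM and the Spry2FF mice 1.08, 1.14 and 1.27. In litter B they had 0.979, 1.22 and 1.84 against 1.08, 1.35 and 1.59. The interaction was -1.38 (SE 0.556) on the log2 scale, with an adjusted p of 0.998 by limma, and without Spry2IEKO mouse 5 it was -0.88. Its unadjusted p stayed under 0.05 in 5 of the 12 fits that left out 1 mouse. Both fat-rich mice were Spry2IEKO mice of litter A, so fat content and this genotype difference cannot be told apart within that litter. Sex was unbalanced there too, with 3 female Spry2IEKO mice against 1 female and 2 male Spry2FF mice. With sex as a covariate, 0 of 8 ligands had an unadjusted p under 0.05 for the interaction. The genotype differences of Areg, Hbegf, Ereg, Nrg1 and Tgfa were below 0 in both litters.

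Litters differed in many more genes than genotypes did, and some ligands were among those with low unadjusted p-values. In a limma fit with genotype as a covariate, 0 of 8 ligands passed an adjusted p of 0.05, beside 4.38% of all genes, and 2 of 8 had an unadjusted p under 0.05, beside 21.9% of all genes. No tested ligand had litters without overlap (0 of 8, beside 3.72% of all genes). Tgfa had the lowest adjusted p, 0.0991 by limma. It ranged from 10.6 to 14.2 normalized TPM in litter A (median 11.96) and from 7.44 to 12.5 in litter B (median 9.78), and 4 of the 6 mice of litter B lay below all of litter A. Its log2 difference, litter B minus litter A, was -0.31 (SE 0.0998), and the sign was the same in Spry2FF mice alone (-0.22) and in Spry2IEKO mice alone (-0.39).

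Ereg was the other ligand with an unadjusted p under 0.05 between litters. It ranged from 1.03 to 2.65 normalized TPM in litter A (median 1.15) and from 1.70 to 2.84 in litter B (median 2.07), so the litters overlapped through 2 Spry2FF mice of litter A, numbers 2 and 3. The log2 difference was 0.43 (SE 0.183; adjusted p = 0.194 by limma), and 0.34 without the fat-rich mice (adjusted p = 0.515 by limma), where its unadjusted p was no longer under 0.05. Areg was higher in litter B by 0.52 (SE 0.315, adjusted p = 0.361 by limma) on the log2 scale, with 2 mice of litter B, 9 and 12, above all of litter A. When 1 mouse was left out, the Areg difference ranged from 0.21 (without Spry2IEKO mouse 12) to 0.65. Nrg4 had a difference of -0.55 (SE 0.332; adjusted p = 0.353 by limma), which was -0.03 without the fat-rich mice. Differences of Egf, Btc and Hbegf were between 0.06 and 0.27 (-0.01, 0.03 and 0.14 without the fat-rich mice), and that of Nrg1 was -0.42 (SE 0.281). With 1 mouse left out, the Nrg1 difference ranged from -0.60 to -0.20, the latter without Spry2FF mouse 9. In females alone it was -0.075. Over the 8 ligands the median litter difference was 0.07, beside -0.05 over all genes tested.

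To see which ligands varied together from mouse to mouse, all 28 pairs of the 8 tested ligands were correlated over the 12 mice on the log2 scale, with two-sided permutation tests of 100000 resamples. Pearson's r was above 0 for 10 pairs and below 0 for 18. An unadjusted permutation p under 0.05 was found for 4 pairs by Pearson's r and for 1 by Spearman's rho, and no pair passed after Benjamini-Hochberg adjustment over the pairs (lowest adjusted permutation p 0.122 and 0.527). When the differences between genotypes and litters had first been removed from the values, 4 pairs again had an unadjusted permutation p under 0.05, but only 1 of them, Areg and Hbegf, was among the earlier 4, and none passed after adjustment (lowest adjusted permutation p 0.138). These p-values take no account of the 2 terms removed.

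Areg and Hbegf, both made by epithelial cells, were the pair that varied most alike (r = 0.74, permutation p = 0.00436, adjusted 0.122; rho = 0.68, permutation p = 0.0188, adjusted 0.527). The relation was positive within litter A (r = 0.80), litter B (0.69), Spry2FF mice (0.87) and Spry2IEKO mice (0.80), with 6 mice each. The 2 mice with the highest levels of Areg, Spry2IEKO mouse 12 and Spry2FF mouse 9, had Hbegf levels of 7.77 and 14.5 normalized TPM, each the highest of its genotype. Without both, r was 0.48, and with genotype and litter removed it was 0.68 (permutation p = 0.0148). Areg and Ereg, neighbours on chromosome 5, had r = 0.65 (permutation p = 0.0252, adjusted 0.236; rho = 0.58, permutation p = 0.0515, adjusted 0.667), and 0.47 without the same 2 mice. Within litters r was 0.57 and 0.75, and within genotypes 0.34 (Spry2FF) and 0.69 (Spry2IEKO). With genotype and litter removed r was 0.38 (permutation p = 0.228).

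The other pairs with a low unadjusted p ran in opposite directions. Ereg and Nrg4 had r = -0.61 (permutation p = 0.0197, adjusted 0.236; rho = -0.45, permutation p = 0.146, adjusted 0.667), which was -0.24 without the fat-rich mice 4 and 5 0.27 within litter B and -0.31 with genotype and litter removed (permutation p = 0.333). Btc and Nrg1 had r = -0.58 (permutation p = 0.0496, adjusted 0.348; rho = -0.41), and -0.52 with both removed (permutation p = 0.0827). Egf was at or below 0 in r with 6 of the 7 other ligands, its lowest being with Ereg at -0.50 (permutation p = 0.1001, adjusted 0.467). With genotype and litter removed, Egf and Ereg were the pair with the lowest p (r = -0.72, permutation p = 0.00841, adjusted 0.138), followed by Hbegf and Nrg1 (r = -0.70, permutation p = 0.0111), with Btc and Nrg4 (r = -0.63, permutation p = 0.0256) behind Areg and Hbegf. Within groups of 6 mice, Egf and Ereg had r = -0.66 and -0.98 in litters A and B, -0.85 in Spry2FF mice and 0.12 in Spry2IEKO mice.

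**Figure D4:**
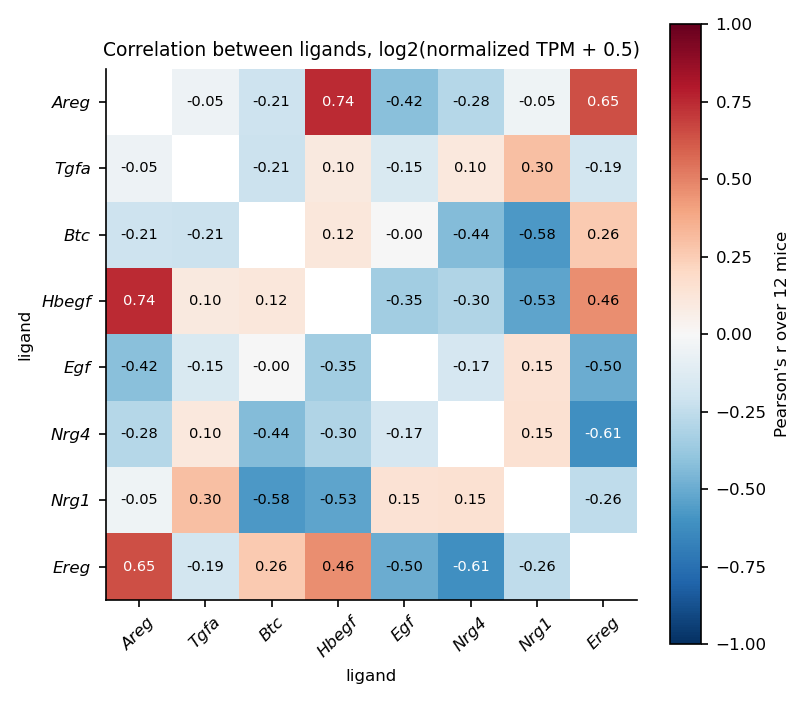
Pearson's r between the 8 tested ligands (both axes) over 12 mice on the log2(normalized TPM + 0.5) scale, from blue (negative) to red (positive). The highest r is 0.74, for Areg and Hbegf, and the lowest -0.61, for Ereg and Nrg4.

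Epgn, Ereg, Areg and Btc lie in 1 cluster on chromosome 5 (chr5:91027464-91402994 in GRCm38, 376 kb), where they are the only 4 protein-coding genes among 7 annotated genes. The cluster held the most abundant ligand and the least abundant, Areg at 18.6 and Epgn at 0.0678 normalized TPM. Within it, Ereg had r = 0.26 with Btc, and Areg had r = -0.21 with Btc, so of the 3 tested members only Areg and Ereg had an unadjusted permutation p under 0.05. The other ligands lie apart, Egf at chr3:129677565-129755316, Tgfa at chr6:86195223-86275719, Nrg1 at chr8:31814551-32884029, Nrg4 at chr9:55220222-55326844 and Hbegf at chr18:36504927-36515805.

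Each of the 8 ligands was also set beside the summed level of 14 lists of cell type markers and of the lists of immediate early and ERK-induced genes, 128 relations in all, chosen after the ligand values had been seen. A Pearson permutation p under 0.05 was found for 20 of them, and 3 passed after adjustment over the 128. Ereg followed the surface colonocyte markers most closely (r = 0.87, permutation p = 0.00027, adjusted 0.0346; rho = 0.92, permutation p = 0.00012, adjusted 0.0154). The relation was 0.94 without the 2 mice farthest from the median of the marker sum, 0.93 and 0.66 within litters A and B, and 0.91 and 0.93 within Spry2FF and Spry2IEKO mice. Areg had r = 0.79 with the same sum (permutation p = 0.00209, adjusted 0.0669; rho = 0.72, permutation p = 0.0105, adjusted 0.301), which was 0.59 without the 2 farthest mice and 0.29 within Spry2FF mice. Tgfa, in contrast, had r = -0.43 (permutation p = 0.166).

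Hbegf ran against the summed level of 5 macrophage markers (Adgre1, Cd68, Csf1r, C1qa and C1qb), with r = -0.81 (permutation p = 0.0011, adjusted 0.0469; rho = -0.77, permutation p = 0.00484, adjusted 0.301). The relation was -0.86 and -0.91 within litters A and B, -0.80 and -0.85 within Spry2FF and Spry2IEKO mice, and -0.57 without the 2 farthest mice. Nrg4 ran with the summed level of the 13 ERK-induced genes (r = 0.75, permutation p = 0.00106, adjusted 0.0469; rho = 0.66, permutation p = 0.0217, adjusted 0.301), with r = 0.84 in litter A, 0.37 in litter B and 0.63 without the 2 farthest mice. With the fat markers Nrg4 had r = 0.88 (permutation p = 0.00354, adjusted 0.0906; rho = 0.48, permutation p = 0.116), but this fell to 0.02 without mice 4 and 5, and so it rested on them. Both sides of each relation come from the same 12 libraries, and their shared composition was not tested.

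**Figure D5:**
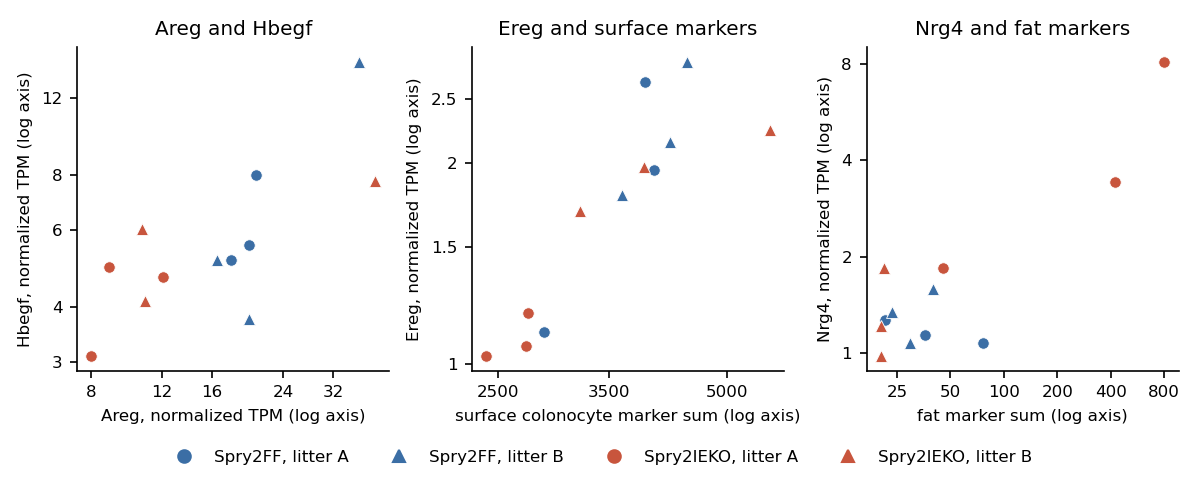
Each point is 1 mouse, colored by genotype and shaped by litter, and all axes are logarithmic, in normalized TPM. Hbegf is plotted against Areg, Ereg against the sum of 6 surface colonocyte markers and Nrg4 against the sum of 6 fat markers, where Spry2IEKO mice 4 and 5 lie at 422 and 802 and the other mice at 20.2 to 76.5.

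For each tested ligand the 3 genes most like it over the 12 mice were found by Pearson's r on the log2 scale among 15871 other genes. These are the highest of very many values and are given as a description. Ereg was most like Trim40 (r = 0.95), Sqor (0.94), an enzyme of mitochondrial sulfide oxidation, and Ttc25 (0.93). Nrg4 was most like Dgat2 (0.95), which makes triglycerides, Cdo1 (0.94), an enzyme of cysteine breakdown, and Aqp7 (0.93), the glycerol channel of fat cells. Tgfa was most like Fem1a, Hmgxb3 and Wls (all 0.93), Wls being the carrier of Wnt proteins to the cell surface. Areg was most like Nedd8 (0.90), Cdan1 (0.87) and Armc9 (0.87), and Hbegf like Myo19 (0.92), Wdr26 (0.89) and Ehhadh (0.88). Egf was most like Gm16011, Tmem242 and Gm16253 (0.87 to 0.88), and Nrg1 like Crcp, Scml2 and Mesd (0.86 to 0.88). The genes most like Btc (Apol10a, Abhd10 and Gnpda2, 0.83 to 0.84) were the least alike of those named.

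The receptors that the ligands bind were present at unequal levels. Erbb3 was at 81.5 ± 14.2 normalized TPM in Spry2FF mice and 88.0 ± 18.3 in Spry2IEKO mice (SD, n = 6 each), Erbb2, the partner that binds no ligand, at 52.5 ± 7.19 and 49.0 ± 12.7, and Egfr at 9.86 ± 2.14 and 8.64 ± 1.99. Erbb4, the only receptor of Nrg4, was at means of 0.00158 and 0.0158 normalized TPM in the 2 genotypes and below the filter. None of the 3 tested receptors passed the test between genotypes. Between litters 1 of 3 did, beside 4.38% of all genes. Egfr was lower in litter B by 0.52 on the log2 scale (SE 0.0811, adjusted p = 0.0112 by limma). This passed without each mouse in turn (12 of 12 fits). Without both fat-rich mice it did not pass (adjusted p = 0.0783 by limma), while the log2 difference was -0.50.

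Of the genes that release or mature the ligands (Adam9, Adam10, Adam12, Adam17, Rhbdf1, Rhbdf2, Rhbdl2 and Frmd8), 0 of 8 passed between genotypes and 0 of 8 between litters. Those with the lowest unadjusted p between genotypes were Rhbdf1 and Frmd8, which carry and stabilize the sheddase Adam17, with log2 differences of -0.28 and -0.24 (adjusted p = 0.753 and 0.760 by limma). The most abundant was Rhbdl2, an intramembrane protease, at 163 ± 10.7 normalized TPM in Spry2FF mice. Of 10 brakes on the receptors, 0 passed between genotypes and 1 between litters (beside 4.38% of all genes), the phosphatase Ptpn1. It was lower in litter B by 0.51 (adjusted p = 0.0316 by limma) and passed in 5 of 12 fits that left out 1 mouse. Without both fat-rich mice it did not pass (adjusted p = 0.130 by limma), while the log2 difference was -0.51. The most abundant brake was Errfi1, an inhibitor of the receptor's kinase, at 46.8 ± 8.83 normalized TPM in Spry2FF mice and 46.4 ± 10.3 in Spry2IEKO mice, and the one with the lowest unadjusted p between genotypes was the ubiquitin ligase Rnf41, with a log2 difference of -0.30 (adjusted p = 0.753 by limma). Nrg2 and Nrg3, the remaining neuregulins, were at means of 0.266 and 0.223 normalized TPM in Spry2FF mice and were not tested.

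Downstream of the receptors, 1 of 13 ERK-induced genes passed between genotypes, beside 0.0315% of all genes, and 0 of 13 between litters, beside 4.38%. The list was chosen with earlier results of these data known, so its counts are a description. Etv4, a transcription factor of the PEA3 group, was at 12.1 ± 3.43 normalized TPM in Spry2FF mice and 23.8 ± 1.88 in Spry2IEKO mice, a log2 difference of 0.98 (SE 0.146; adjusted p = 0.0430 by limma). It stayed between 0.91 and 1.10 when any mouse was left out, and passed in 1 of those 12 fits. Without both fat-rich mice the difference was 0.997, with an adjusted p of 0.228 by limma. The next lowest p-values were those of Dusp6, an ERK phosphatase and the most abundant of the list, with a log2 difference of 0.48 (SE 0.104; adjusted p = 0.250 by limma), and of Etv5, a relative of Etv4, with 0.81 (SE 0.191; adjusted p = 0.345 by limma). Fitted differences were above 0 for 10 of the 13, with a median of 0.19, beside 0.00756 over all genes, while the 8 ligands had a median of -0.30. Of 9 tested immediate early genes 0 passed between genotypes and 0 between litters.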

How the data were processed

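Distal colon RNA of 12 mice was sequenced by the study, and the labels gave each mouse its genotype, litter and sex. The submitters' processing notes name CASAVA, kallisto and sleuth, with build mm10. The authors deposited 1 table with a signal per transcript and mouse, TPM scaled between mice (normalized TPM), and with their own p-values and q-values, which were left unused. Tests planned for TPM served for this signal as well.

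Of 113974 entries, 781 repeated a transcript and were dropped. Date-like names of 188 entries were restored from Ensembl identifiers, and nameless entries held up to 0.0632% of the total in a mouse. Sums were taken by gene symbol. The members and lists were chosen with earlier results of these data known. Transcripts are named where they hold at least 10% of a ligand's level. From each tested list the counts that passed the adjusted threshold are given. Named are all receptors, the member with the highest level and at most 3 with the lowest unadjusted p.

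The comparisons used limma 3.58.1 (R 4.3.3; functions lmFit and eBayes, trended prior) on log2(normalized TPM + 0.5), which understates changes of low genes, where a gene's mean over the mice reached 0.5; tests were two-sided, with Benjamini-Hochberg adjustment over all genes. The fits were tested on simulated data. Exact permutation tests and correlations used SciPy 1.17.1. Biotypes, positions and sequences came from GENCODE M21 (GRCm38), which held all 53 ligand transcripts and, for 96.6% of all transcripts, the same identifier and version. The 6-cysteine stretch was searched in the reading frame, or in all 3 sense frames of transcripts with none. Alternatives were the pseudocount, the filter, scaling, covariates, subsets of mice, and leaving out each mouse.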

Additional observations from a re-analysis of the deposited data

Results flagged for a closer look

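In 58 groups of 6 mice, for the 9 ligands and the genes named beside them, 9 groups had 1 mouse far from the other 5 by Dixon's criterion. For normally distributed values chance gives this in about 1 of 20 groups. The values here were not put on the log scale, and in the Epgn and Erbb4 groups the other 5 mice were listed at 0. There any value above 0 meets the criterion, so the count of 9 cannot be judged against that rate. Among the ligands these were Areg in Spry2FF mouse 9 (37.0 normalized TPM, others 16.5 to 20.6), Areg in Spry2IEKO mouse 12 (40.6, others 8.03 to 12.1), Nrg4 in Spry2IEKO mouse 5 (8.13, others 0.979 to 3.42) and Epgn in Spry2IEKO mouse 5 (0.0860, others listed at 0).

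Among the receptors and their neighbours they were Erbb3 in Spry2IEKO mouse 8 (123, others 73.9 to 90.7), Erbb4 in Spry2FF mouse 3 (0.00947, others listed at 0), Rhbdf2 in Spry2FF mouse 7 (4.74, others 6.72 to 7.62), Lrig1 in the same mouse (53.2, others 41.3 to 44.5) and Fos in Spry2FF mouse 9 (207, others 41.6 to 78.4). What sets these mice apart was not tested.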

How the results depend on the processing

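No ligand passed an adjusted p of 0.05 by limma in any comparison under any alternative run. The 5 genes called between genotypes became 1 with no filter on low values, with sex or litter and sex as covariates, in litter B alone and without both fat-rich mice, 2 after quantile normalization, in females alone and in litter A alone, and 1 to 11 when 1 mouse was left out. Of the 696 genes called between litters, 171 were higher in litter B and 525 lower. The count was 422 with no filter. With every mouse rescaled to the same total it was 1456 (105 higher, 1351 lower), and after quantile normalization 477 (209 higher, 268 lower). Without both fat-rich mice, an alternative chosen after seeing the data, it was 17. It was 1 in females alone, in Spry2FF mice alone and in Spry2IEKO mice alone, and 180 to 957 when 1 mouse was left out. The interaction, with 2 genes, had 0 under the stricter filter of 2 normalized TPM and 2 to 5 when 1 mouse was left out. Permutation tests of single ligands, with 1 p under 0.05 (Epgn), had 2 when genotypes were exchanged within litters and 1 to 2 when 1 mouse was left out, and the pairs of ligands past the adjusted threshold were 0 to 1 (Areg and Hbegf, without Spry2FF mouse 10, adjusted permutation p 0.0353).

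Signs turned for some small log2 differences. Between genotypes Egf was at -0.19 in females alone, Btc at -0.085 in litter A and Nrg4 at -0.0097 in litter B. Between litters Egf was at -0.011 and Btc at -0.0039 after rescaling to the same total, Egf at -0.066 and Hbegf at -0.023 in females alone, Btc at -0.094 and Nrg4 at 0.14 in Spry2FF mice alone, and Egf at -0.014 without the fat-rich mice and from -0.018 to 0.14 when 1 mouse was left out. The interaction ranged, with 1 mouse left out, from -0.079 to 0.28 for Egf, -0.063 to 0.90 for Areg, -0.044 to 0.86 for Hbegf and -0.28 to 0.62 for Nrg1. The causes were not tested. No paired analysis was possible because the genotypes share no replicate numbers. The paper gives only an approximate read depth for all samples, and the depth of each mouse is unknown. The counting error of the low ligands Epgn, Ereg, Nrg1 and Nrg4 was not estimated.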
